A study of Mus musculus with 12 samples.

Results

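The genes described here are the Dlx genes and other transcription factor genes that specify the interneurons of the olfactory bulb. They were chosen by name: Dlx1, Dlx2, Dlx5, Dlx6, Dlx6os1, Sp8, Sp9, Etv1, Pax6 and Meis2, 10 genes in all. Of these, 9 were measured, among 19938 genes that have a probe set with a single gene symbol. Dlx6os1 matched no probe set by symbol, older name, Entrez number or transcript accession and has no value here. That Dlx5 was higher in knockout bulb was known when the genes were put together, so that difference is not independent support for the choice.

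The study compared adult mice lacking RasGRF2, labelled GRF2 KO, with wild-type mice (WT), all labelled C57BL/6 and housed in a conventional facility with exposure to common pathogens. RasGRF2 is an exchange factor that activates Ras and Rac proteins in neurons, and the study asked what it does for stem cells and young neurons of the adult hippocampus. Olfactory bulb and hippocampus of 3 knockout and 3 wild-type animals gave 12 arrays in 4 groups of 3. No treatment is given. The sources used here do not say how the knockout allele was built, how far it was backcrossed or whether the animals were littermates. Each value is a log2 intensity of a probe set, and values of different probe sets cannot be set against each other.

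Interneurons of the olfactory bulb are made throughout life. Progenitors in the wall of the lateral ventricle give rise to neuroblasts that migrate to the bulb and become granule cells and periglomerular cells, most of which use GABA. Dlx genes encode homeodomain proteins that stand in linked pairs, Dlx1 with Dlx2 and Dlx5 with Dlx6, and DLX1 and DLX2 are known to act upstream of Dlx5 and Dlx6 and of the enzymes of GABA synthesis. SP8 and SP9 are zinc finger factors of the same lineage, ETV1 is an ETS factor, PAX6 is a paired-box homeodomain factor needed by dopaminergic periglomerular cells, and MEIS2 is a TALE homeodomain partner of PAX6 and DLX proteins. Dlx6os1, also called Evf2, is a long non-coding RNA from the strand opposite Dlx6.

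The starts of 4 of the genes are shown first, because the families named here bind short DNA motifs. In RefSeq, assembly GRCm38.p6, 8 of the 10 genes had 13 windows of 300 bases around a transcript start, and no window of Dlx5 or Dlx6 was matched. The motifs searched on both strands were TAATTA, a core bound by homeodomains of the Dlx kind, GGGCGG, the GC box of the Sp family, and TGACAG, a core bound by Meis proteins. TAATTA is its own reverse complement, a match to GGGCGG on the other strand reads CCGCCC, and no matches printed here overlap. Capitals mark the matches in the windows of Dlx1 (chr2:71529195-71529494, plus strand), Dlx2 (chr2:71546705-71547004, minus strand), Sp9 (chr2:73271676-73271975, plus strand) and Dlx6os1 (chr6:6869484-6869783, minus strand), each printed 5′ to 3′ along the strand of its gene.
Dlx1: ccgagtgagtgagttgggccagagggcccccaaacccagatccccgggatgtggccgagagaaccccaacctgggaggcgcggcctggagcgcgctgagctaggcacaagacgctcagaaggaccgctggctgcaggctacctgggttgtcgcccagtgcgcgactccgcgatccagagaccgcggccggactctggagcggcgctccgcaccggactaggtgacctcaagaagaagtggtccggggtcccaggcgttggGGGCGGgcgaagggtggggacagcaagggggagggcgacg
Dlx2: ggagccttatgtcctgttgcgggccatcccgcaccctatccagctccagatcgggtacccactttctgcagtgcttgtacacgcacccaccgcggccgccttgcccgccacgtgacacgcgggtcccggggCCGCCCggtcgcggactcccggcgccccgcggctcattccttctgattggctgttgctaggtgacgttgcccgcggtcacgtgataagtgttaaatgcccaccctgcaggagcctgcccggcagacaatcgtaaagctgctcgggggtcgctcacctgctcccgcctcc
Sp9: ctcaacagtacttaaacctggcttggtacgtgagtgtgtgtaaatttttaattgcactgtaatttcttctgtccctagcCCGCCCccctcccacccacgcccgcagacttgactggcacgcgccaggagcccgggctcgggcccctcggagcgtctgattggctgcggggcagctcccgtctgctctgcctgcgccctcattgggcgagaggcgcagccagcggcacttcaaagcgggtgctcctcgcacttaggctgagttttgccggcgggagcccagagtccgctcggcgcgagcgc
Dlx6os1: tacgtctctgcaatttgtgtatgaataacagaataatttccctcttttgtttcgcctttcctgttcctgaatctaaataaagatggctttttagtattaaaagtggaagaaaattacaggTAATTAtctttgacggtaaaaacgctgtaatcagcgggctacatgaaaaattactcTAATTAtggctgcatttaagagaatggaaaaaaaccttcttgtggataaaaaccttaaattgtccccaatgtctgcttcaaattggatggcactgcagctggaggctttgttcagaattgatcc
The windows of Dlx1, Dlx2 and Sp9 each hold 1 GC box, and this window of Dlx6os1 holds 2 copies of TAATTA. All windows printed hold a match, while those of Etv1 and Meis2 hold none and are not shown. Over the 13 windows, TAATTA was found in 3, GGGCGG in 4 and TGACAG in 2. Of all 32851 windows in the same table, 5.29% hold TAATTA, 35.7% hold GGGCGG and 19.2% hold TGACAG. These matches describe the letters only, and binding was not measured.

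The tissue labels were checked against defining genes. All 4 bulb markers were lower in hippocampus in both genotypes, among them Eomes, a factor of mitral and tufted cells, with a log2 difference of -4.08 in wild type and -4.51 in knockout. All 5 hippocampal markers were higher there, among them Prox1, the factor of dentate granule cells, by 3.31 and 3.25. Rasgrf2 itself read 9.52, 9.52 and 9.47 in wild-type bulb against 9.33, 9.35 and 9.43 in knockout bulb, a difference of -0.14 (adjusted p = 0.532). The wild-type hippocampi gave 9.32, 9.14 and 9.18 and the knockout hippocampi 8.64, 8.76 and 8.49, which differ by -0.58 (SE 0.0772, adjusted p = 0.00197). Its groups did not overlap in either tissue, but only the hippocampal difference passed the test, and the sources used here do not say where the probes lie relative to the deletion. Array medians lay between 6.82 and 6.96, and arrays of the same tissue correlated at 0.984 or above across genes. The arrays carry no read depth, and with 3 per group their number limits the precision.

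Wild-type bulb replicate 1 was high in Cyp2g1 and Stoml3, which are genes of the olfactory mucosa, the tissue that sends its axons into the bulb. Cyp2g1, an enzyme of the mucosa, read 8.29 on that array and 5.37 to 5.68 on the 5 other bulb arrays. Stoml3, a protein of sensory neuron cilia, read 10.07, 9.24 and 7.87 in wild-type bulb and 8.19, 7.94 and 8.30 in knockout bulb. Omp, the marker of mature sensory neurons, read 8.90, 8.94 and 8.78 against 8.80, 8.75 and 9.15, so the first array did not stand out in it. That array was the highest of the 6 bulb arrays in 4 of the 9 measured mucosa genes. The mean over the 9 genes was 8.17, 7.73 and 7.44 in wild-type bulb and 7.56 to 7.70 in knockout bulb. Over the 7 genes other than Cyp2g1 and Stoml3 it was 7.89, 7.81 and 7.65 in wild-type bulb and 7.80, 7.82 and 7.91 in knockout bulb, so the high mean rests on those 2 genes.

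Dlx5, the homeobox gene whose product acts downstream of DLX1 and DLX2 in forebrain interneurons, differed between genotypes in the bulb. Its probe set read 9.72, 9.53 and 9.32 in the wild-type bulbs and 10.47, 10.28 and 10.33 in the knockout bulbs. Every knockout bulb was above every wild-type bulb, and the gap between the groups was wider than the spread within either. The group means were 9.52 ± 0.199 (SD, n = 3) and 10.36 ± 0.0954 (SD, n = 3). Dlx5 was thus 1.79-fold higher in knockout, a log2 difference of 0.84 (SE 0.107, 95% interval 0.61 to 1.07, limma adjusted p = 0.00117). In bulk tissue, here and in all comparisons, more or fewer cells of a type and more or less RNA per cell cannot be told apart. Without wild-type bulb replicate 1, the array high in Cyp2g1 and Stoml3, the difference was 0.94 (adjusted p = 0.00159).

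Markers of mitral and tufted cells and of dopaminergic cells were read beside Dlx5 in the bulb. All 4 bulb markers were above 0 in knockout bulb, with a median of 0.12, and 0 of the 4 passed in limma. Tbx21, Eomes and Cdhr1 also belong to a list of 11 measured projection neuron genes. Of those 11, 5 were above 0 and 6 below 0 in knockout bulb, with a median of -0.01. Eomes read 9.73, 9.59 and 9.56 in wild-type bulb and 9.83, 10.01 and 10.14 in knockout bulb. These groups did not overlap, and the difference was 0.36 (SE 0.107, unadjusted p = 0.00396, adjusted p = 0.242). Tbx21, a T-box factor of mitral and tufted cells, differed by 0.12 (adjusted p = 0.732), Cdhr1 by 0.02 (adjusted p = 0.951) and Th by 0.12 (adjusted p = 0.712). The mean over the 4 markers lay between 9.80 and 9.89 in wild-type bulb and between 9.96 and 10.04 in knockout bulb. The part of these markers in the Dlx5 result was not tested.

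In hippocampus Dlx5 read 7.17, 7.14 and 7.23 in wild type and 7.39, 7.50 and 7.12 in knockout. The groups overlapped there, since knockout replicate 6 lay below all 3 wild-type arrays. The difference was 0.16 (SE 0.107, 95% interval -0.07 to 0.38, adjusted p = 0.68). The effect in hippocampus minus the effect in bulb was -0.68 (SE 0.151, unadjusted p = 0.000421), and its adjusted p of 0.241 did not pass, so a difference between the tissues is not shown. From the highest group to the lowest, Dlx5 ran from knockout bulb to wild-type bulb, knockout hippocampus and wild-type hippocampus, and the last 2 groups did not differ beyond their spread.

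**Figure D1:**
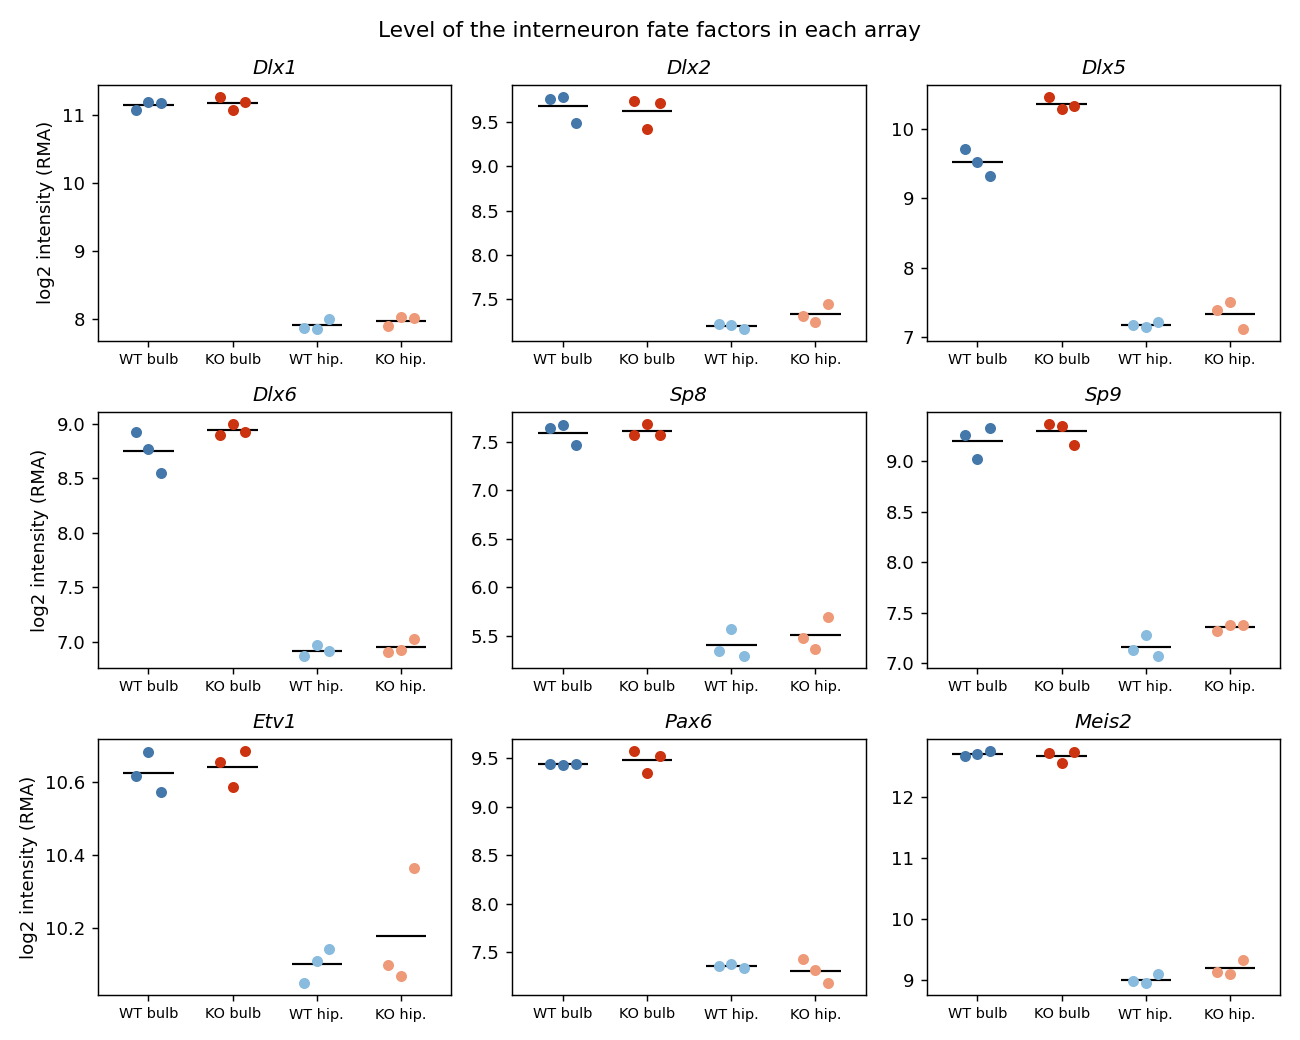
Log2 intensity of the 9 measured fate factor genes on each of the 12 arrays, 1 panel per gene with its own axis that does not start at 0, with a black bar at each group mean. Bulb arrays lie above hippocampus arrays in all 9 panels, and only Dlx5 has its knockout bulb arrays (10.28 to 10.47) clear of the wild-type bulb arrays (9.32 to 9.72).

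Dlx6, the linked partner of Dlx5 and known to share enhancers with it, read 8.93, 8.77 and 8.55 in wild-type bulb and 8.90, 9.00 and 8.93 in knockout bulb. The highest wild-type array lay inside the knockout range. The difference was 0.19 (SE 0.0864, 95% interval 0.01 to 0.38), which reached an unadjusted p of 0.0405 and an adjusted p of 0.424. It was 0.093 without wild-type bulb replicate 3 and 0.29 without wild-type bulb replicate 1. In hippocampus Dlx6 read 6.87, 6.97 and 6.92 in wild type and 6.91, 6.93 and 7.03 in knockout, overlapping groups with a difference of 0.04 (adjusted p = 0.91). In the gene table Dlx6 lies within the span of Dlx6os1, and the sources used here do not tell which strand the probes read, so the Dlx6 values are uncertain in that respect. Dlx5 and Dlx6os1 do not overlap.

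The pair was also compared within each array. The Dlx5 value minus the Dlx6 value was higher in knockout than in wild-type bulb by 0.65 (exact permutation test, two-sided, p = 0.1, the smallest that 20 relabellings of 3 against 3 allow). In hippocampus the same quantity differed by 0.12 (exact permutation p = 0.5). The design cannot reach 0.05 with this test. The Dlx5 rise in bulb was known when the genes were chosen, so the bulb value is not independent support for that rise.

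Dlx1 read 11.07, 11.19 and 11.17 in wild-type bulb and 11.27, 11.07 and 11.20 in knockout bulb, with a difference of 0.03 (95% interval -0.13 to 0.19, adjusted p = 0.90). Its hippocampal values were 7.88, 7.86 and 8.01 against 7.90, 8.03 and 8.01. The groups overlapped in both tissues, and the hippocampal difference was 0.07 (adjusted p = 0.796). Dlx2, which is expressed in dividing progenitors of the lineage, read 9.76, 9.79 and 9.49 in wild-type bulb and 9.74, 9.42 and 9.71 in knockout bulb, a difference of -0.05 (95% interval -0.26 to 0.16, adjusted p = 0.874). In hippocampus it read 7.23, 7.21 and 7.17 against 7.31, 7.25 and 7.45. Here the knockout arrays all lay above the wild-type arrays, but the difference of 0.13 did not pass (SE 0.098, adjusted p = 0.703).

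Sp8, the zinc finger factor of calretinin and parvalbumin interneurons of the bulb, read 7.65, 7.67 and 7.47 in wild-type bulb and 7.57, 7.68 and 7.57 in knockout bulb. The groups overlapped, with a difference of 0.01 (95% interval -0.19 to 0.22, adjusted p = 0.967). In hippocampus, where it read 5.35, 5.57 and 5.29 against 5.48, 5.36 and 5.69, the difference was 0.11 (adjusted p = 0.754). Sp9, its close relative, read 9.26, 9.02 and 9.33 in wild-type bulb and 9.37, 9.35 and 9.16 in knockout bulb, a difference of 0.09 (95% interval -0.10 to 0.28, adjusted p = 0.712). Its hippocampal values were 7.13, 7.28 and 7.07 in wild type and 7.32, 7.38 and 7.37 in knockout. These groups did not overlap, yet the difference of 0.20 (SE 0.0886, 95% interval 0.01 to 0.39) had an unadjusted p of 0.0408 and an adjusted p of 0.545.

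Etv1, also called Er81, an ETS factor of dopaminergic periglomerular cells and superficial granule cells, read 10.62, 10.68 and 10.57 in wild-type bulb and 10.66, 10.59 and 10.69 in knockout bulb, a difference of 0.02 (95% interval -0.15 to 0.19, adjusted p = 0.951). In hippocampus it read 10.05, 10.11 and 10.14 against 10.10, 10.07 and 10.36, where knockout replicate 6 was the high array, and the difference was 0.08 (adjusted p = 0.782). Etv1 was the 1 measured gene of the set with a further probe set. That probe set gave 0.10 in bulb (adjusted p = 0.832) and 0.07 in hippocampus (adjusted p = 0.901).

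Pax6 read 9.44, 9.43 and 9.44 in wild-type bulb, with an SD of 0.00582, and 9.58, 9.35 and 9.53 in knockout bulb, with an SD of 0.118. The knockout arrays lay on both sides of the wild-type arrays, with a difference of 0.05 (95% interval -0.12 to 0.21, adjusted p = 0.853). The hippocampal arrays gave 7.36, 7.38 and 7.34 against 7.43, 7.32 and 7.18, again with the wider spread in knockout, and the difference was -0.05 (adjusted p = 0.868). Meis2 read 12.67, 12.70 and 12.75 in wild-type bulb and 12.72, 12.55 and 12.74 in knockout bulb, a difference of -0.04 (95% interval -0.21 to 0.13, adjusted p = 0.884). Meis2 in hippocampus read 8.97, 8.94 and 9.09 against 9.13, 9.10 and 9.32, groups that did not overlap. The difference of 0.18 (SE 0.079, 95% interval 0.02 to 0.35) had an unadjusted p of 0.0344 and an adjusted p of 0.537.

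Set against all genes, 1 of the 9 measured fate factors passed the threshold in bulb, where 37 genes, or 0.186% of all tested, were higher and 45, or 0.226%, were lower in knockout. That 1 was Dlx5, whose rise in bulb was known when the genes were chosen. Bulb counts that include Dlx5 are thus not a result about the set, and none of the others passed. The median difference was 0.03 over the 9 genes and -0.02 over all genes, with 7 of the 9 above 0. With every probe set tested, 80 probe sets were higher and 24 lower in bulb, with dim genes left out 62 genes were higher and 44 lower, and without wild-type bulb replicate 3 the counts were 36 and 69. At an unadjusted p under 0.05 stood 2245 genes in bulb, or 11.3% of all, and 1776 in hippocampus, or 8.91%, the shares against which unadjusted counts in gene lists are to be read. In hippocampus 0 of the 9 passed in limma, with 2 at an unadjusted p under 0.05, where 29 genes, or 0.145%, were higher and 22, or 0.11%, were lower. With array weights that split was 222 against 114, and with every probe set 49 against 76. There the median was 0.11 over the 9 genes and 0.03 over all genes, with 8 above 0. Every knockout array lay above every wild-type array for 1 of the 9 in bulb, Dlx5, against 8.22% of all genes, and for 3 of the 9 in hippocampus, Dlx2, Sp9 and Meis2, against 9.39% of all genes.

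**Figure D2:**
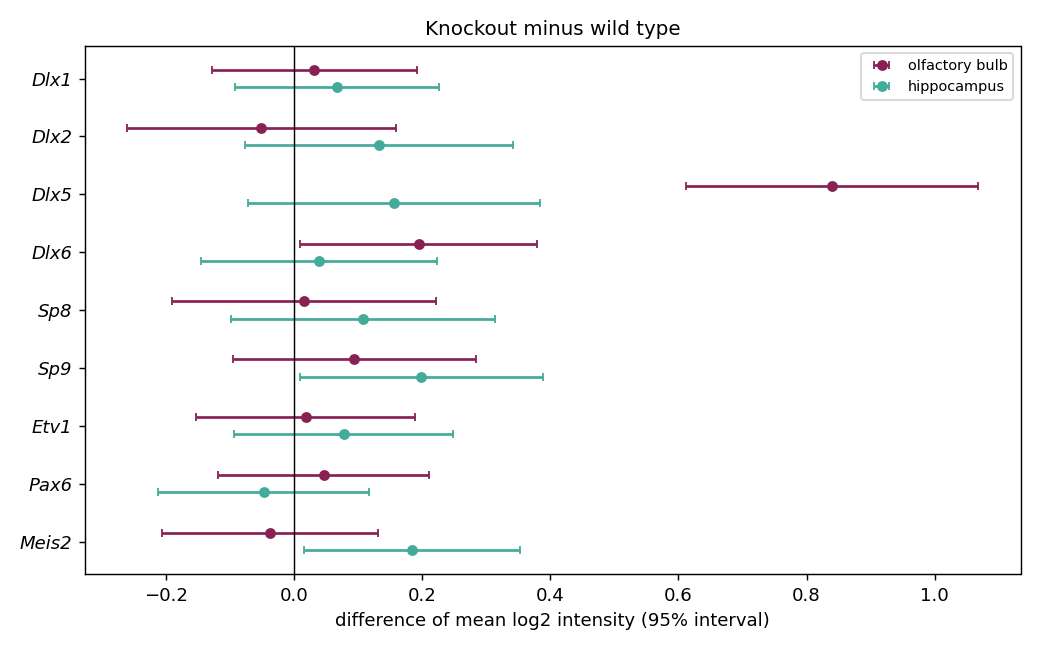
Knockout minus wild type in log2 intensity for each fate factor, with limma's 95% interval, in bulb and in hippocampus. The Dlx5 interval in bulb, 0.61 to 1.07, lies above all others, and the other bulb differences run from -0.05 to 0.19.

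For the difference between the tissues' knockout effects, 0 of the 9 genes passed in limma and 1, Dlx5, had an unadjusted p under 0.05. Over all genes 3 passed, or 0.015%, and 0 with the animal as a block. The other values, hippocampus minus bulb, ran from -0.16 for Dlx6 (adjusted p = 0.644) to 0.22 for Meis2 (adjusted p = 0.489). Dlx1 had 0.04, which became -0.01 when arrays were centred on their medians.

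The fate factors were then compared between the tissues. They were chosen as bulb interneuron genes with earlier results of these data known, so the counts are not independent support for that description. In wild type all 9 measured genes passed the test and all were lower in hippocampus, where 23.4% of all genes were called lower. In knockout all 9 passed again, where 19.9% of all genes were called lower. The bulb and hippocampus arrays did not overlap for any of the 9 genes in either genotype. The median difference was -2.19 over the 9 genes and -0.07 over all genes in wild type, and -2.17 and 0.01 in knockout. Over all genes the test called 3480 higher and 4668 lower in wild type and 3838 higher and 3966 lower in knockout. With arrays centred on their medians, which moved the median gene by 0.113 in wild type, these splits became 4911 against 2888 and 5330 against 3151, and all 9 fate factors were still called lower.

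Meis2 had the largest difference between the tissues among the 9, with 13.0-fold lower values in wild-type hippocampus (log2 difference -3.70, adjusted p = 5.94e-14) and 11.2-fold lower values in knockout (-3.48). Dlx1 followed in wild type with 9.39-fold (-3.23, adjusted p = 1.56e-13) and stood at 9.16-fold in knockout (-3.20). Dlx2 was lower by 5.56-fold in wild type and 4.90-fold in knockout. Dlx5 was lower in hippocampus by 5.06-fold in wild type (-2.34, adjusted p = 1.57e-10) and by 8.13-fold in knockout (-3.02, adjusted p = 1.06e-11). The step between these Dlx5 values is the tissue difference of -0.68 given above, which did not pass after adjustment.

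Sp8, Pax6, Sp9 and Dlx6 differed by less, from 4.56-fold for Sp8 to 3.55-fold for Dlx6 in wild type, and from 4.51-fold for Pax6 to 3.83-fold for Sp9 in knockout. Sp8 stood at percentile 20 of all genes in hippocampus, Dlx6 at 44.7, Dlx5 and Sp9 at 50.1, Dlx2 at 50.2 and Pax6 at 51.3. Array values compress differences at low levels, so the order of the folds is only descriptive. That limit applies to genotype differences in hippocampus too. Etv1, which pyramidal neurons of the cortex also express, differed least, 1.44-fold in wild type (-0.53, adjusted p = 7.2e-05) and 1.38-fold in knockout (-0.47, adjusted p = 0.000221). Its further probe set differed by -0.43 (adjusted p = 0.0261) and -0.46 (adjusted p = 0.0181).

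**Figure D3:**
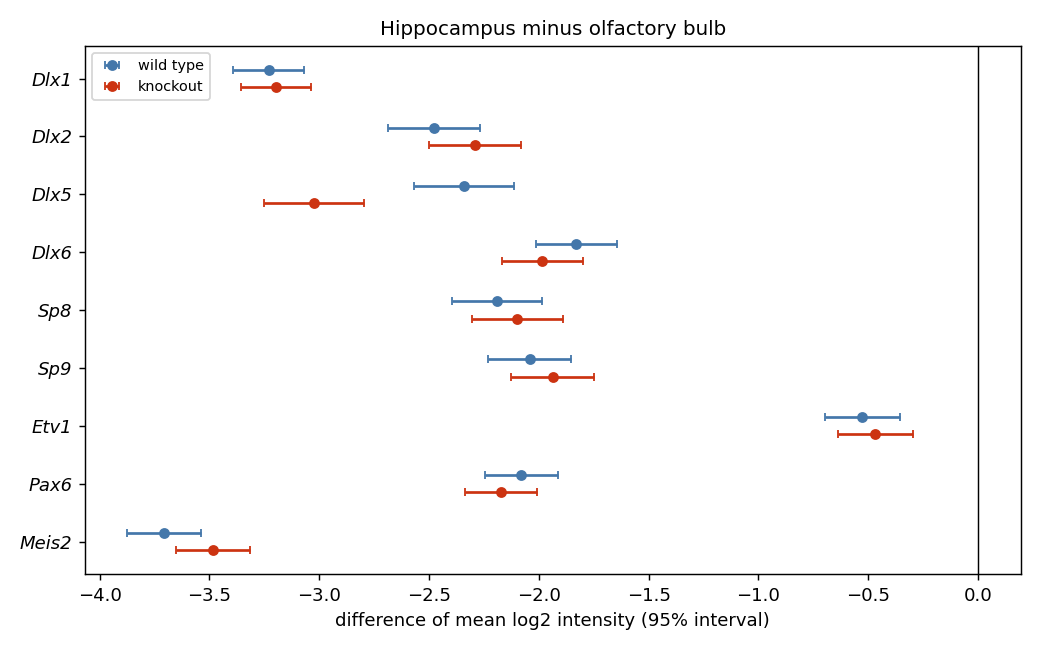
Hippocampus minus bulb in log2 intensity for each fate factor, with limma's 95% interval, in wild type and in knockout. All intervals lie below 0, from Meis2 at -3.70 and -3.48 to Etv1 at -0.53 and -0.47, and the wild-type and knockout intervals stand apart for Dlx5 alone, at -2.34 and -3.02. The intervals are not adjusted for the number of genes, and the step between these Dlx5 values did not pass after adjustment.

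The genes around the Dlx pairs were then examined, 5 measured genes on each side in the order of the gene table. Beside Dlx6 and Dlx5 on chromosome 6 these were Asb4, Pdk4, Dync1i1, Slc25a13 and Sem1 on the one side and Sdhaf3, Tac1, Asns, C1galt1 and Col28a1 on the other. In bulb 0 of the 10 passed in limma and 0 had an unadjusted p under 0.05. Their bulb differences ran from -0.25 to 0.16, the lowest adjusted p was 0.56, and 4 of them were above 0. Sem1 and Sdhaf3, the neighbours next to the pair, had -0.01 (adjusted p = 0.967) and 0.07 (adjusted p = 0.818). In hippocampus 0 of the 10 passed and 1 had an unadjusted p under 0.05, with differences from -0.39 to 0.20.

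Beside Dlx1 and Dlx2 on chromosome 2, with Dlx1as between them, the 10 genes were Cybrd1, Dync1i2, Slc25a12, Hat1, Metap1d, Platr26, Itga6, Pdk1, Map3k20 and Cdca7. In bulb 0 of these passed in limma and 2 had an unadjusted p under 0.05. Their bulb differences ran from -0.095 to 0.29, and 8 of them were above 0. Cybrd1, a ferric reductase, was farthest from 0 at 0.29 (adjusted p = 0.122). In hippocampus 0 passed and 1 had an unadjusted p under 0.05, with differences from -0.19 to 0.16. Sp9, Pax6 and Meis2 also lie on chromosome 2, and Sp8 and Etv1 lie on chromosome 12.

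**Figure D4:**
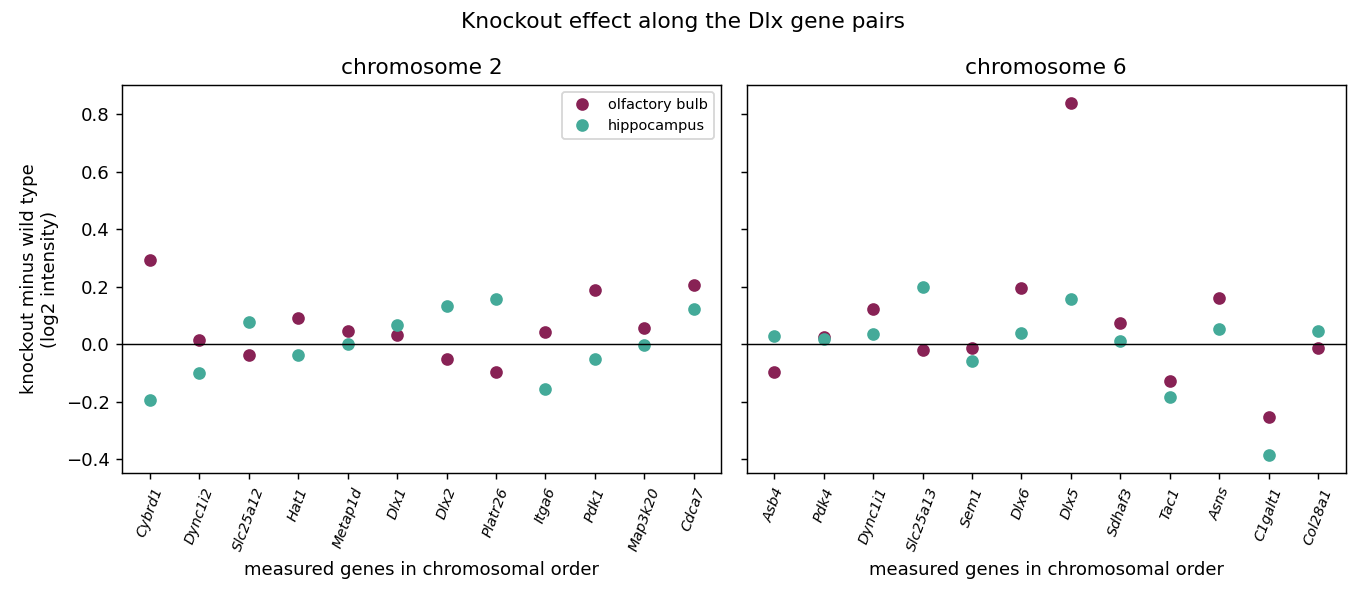
Knockout minus wild type in log2 intensity for the Dlx1 and Dlx2 pair (chromosome 2) and the Dlx6 and Dlx5 pair (chromosome 6) with 5 measured genes on each side in chromosomal order, evenly spaced. Dlx5 in bulb, at 0.84, is the highest point, and its neighbours in bulb lie between -0.25 and 0.19, Dlx6 included.

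Among the genes searched, those most like Dlx5 over the 12 arrays followed the tissue. Pearson's r was 0.99 for Chd6, a chromatin remodeller, 0.99 for Nipal2 and 0.989 for Rragd, a small GTPase of the mTORC1 pathway. With the mean of each tissue taken away, the highest values were those of Snapc3, a subunit of the complex that activates small nuclear RNA genes (r = 0.953), Sntg1, a syntrophin (r = 0.932), and Arf1, a small GTPase of the Golgi (r = 0.926). None of these 6 genes passed in knockout bulb, where the adjusted p was lowest for Sntg1 at 0.0589, with a difference of 0.35, and for Snapc3 at 0.0995, with a difference of 0.32. These correlations are descriptions over 12 arrays that share tissue and genotype. The genes were picked as the highest of those searched, which left out predicted genes, clones, small RNAs and chemoreceptors.

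Among the fate factors, the 36 pairs correlated at 0.923 to 0.999 over the 12 arrays, with a median of 0.989, which follows from the tissue difference that all share. With the tissue means taken away the range was -0.439 to 0.742, the median was 0.202 and 24 pairs were above 0. With the group means taken away it was -0.42 to 0.761, the median was 0.012 and 18 of 36 pairs were above 0. Dlx1 and Dlx2 correlated at 0.365 without the tissue means and 0.305 without the group means, and Dlx5 and Dlx6 at 0.675 and 0.333. Etv1 with Meis2 had the highest value without the group means, 0.761, over 12 arrays in which knockout hippocampus replicate 6 was the high array of its group for both.

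Lists of related genes were read for the company the fate factors keep. Of other transcription factors of the lineage, 16 of 21 were measured, and 0 passed in either tissue in limma, with 2 at an unadjusted p under 0.05 in each. Their median difference was -0.01 in bulb and 0.11 in hippocampus, against -0.02 and 0.03 over all genes. Between the tissues, 8 of the 16 were lower in wild-type hippocampus and 3 higher, and 9 and 4 in knockout. Pbx3, a TALE homeodomain cofactor, differed by -4.60 in wild type and -4.44 in knockout, Meis1, a relative of Meis2, by -3.56 and -3.50, and Tshz1, a zinc finger factor of bulb neuroblasts, by -2.83 and -3.03.

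Of 14 genes known to be regulated by Dlx or Sp factors, 13 were measured, and 0 passed for genotype in limma, with 1 at an unadjusted p under 0.05 in bulb and 0 in hippocampus. In bulb 4 of the 13 were above 0 with a median of -0.02, and in hippocampus 8 were above 0 with a median of 0.02, which was below 0 with arrays centred on their medians. The list was not split by whether the factors raise or lower a gene. These counts and medians therefore cannot tell whether the factors' activity changed. Gad1, which makes GABA, differed in bulb by -0.03 (adjusted p = 0.88), Gad2 by -0.07 (adjusted p = 0.781) and Slc32a1, the vesicular GABA transporter, by -0.02 (adjusted p = 0.965). Between the tissues 6 of the 13 were lower and 4 higher in hippocampus in both genotypes. Gad1 differed by -1.69 in wild type and -1.70 in knockout. Some genes stand in more than 1 of these lists, such as Gad1 here and among the products, and Pbx3 and Meis1 among both the lineage factors and the relatives.

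Of 19 products and transmitters of interneurons, all measured, Htr3a passed in both tissues and no other did. Htr3a, a serotonin-gated channel subunit of a class of interneurons, read 6.64, 6.69 and 6.80 in wild-type bulb and 7.67, 7.60 and 7.58 in knockout bulb. In hippocampus it read 6.77, 6.92 and 6.73 against 7.38, 7.65 and 7.35. The groups did not overlap in either tissue, and the differences were 0.90 (SE 0.0868, adjusted p = 0.000108) and 0.65 (adjusted p = 0.00197). The medians of the list were 0.03 in bulb and 0.08 in hippocampus. Between the tissues 15 of the 19 were lower and 3 higher in hippocampus in both genotypes. Th, the rate-limiting enzyme of dopamine synthesis, differed by -4.65 and -4.47, Trh, the precursor of thyrotropin-releasing hormone, by -3.09 and -3.07, and Calb1, the calbindin of periglomerular and dentate granule cells, by 2.72 and 2.64.

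Of 21 genes of neuroblast migration, all measured, 0 passed for genotype in limma in either tissue, with 4 in bulb and 1 in hippocampus at an unadjusted p under 0.05. Their medians were -0.01 in bulb, which was above 0 with arrays centred on their medians, and -0.02 in hippocampus. Dcx, the microtubule protein of migrating neurons, was lower in hippocampus, with differences of -2.95 in wild type and -3.14 in knockout, and so was Prokr2, a receptor that guides neuroblasts to the bulb, with -1.84 and -1.60. Slit1 and Slit2, secreted guidance cues, were higher there, Slit1 by 2.55 and 2.70 and Slit2 by 2.02 and 2.01. In all, 12 were lower and 8 higher in wild type, and 11 and 7 in knockout.

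Relatives and cofactors from the Dlx, Sp, ETS, Pax, Meis and Pbx families numbered 27, with 25 measured and 0 past the threshold for genotype in limma in either tissue. In each tissue 2 had an unadjusted p under 0.05. The other Dlx genes measured, Dlx3 and Dlx4, which act mainly outside the forebrain, differed in bulb by -0.19 (adjusted p = 0.437) and -0.11 (adjusted p = 0.672). Their bulb levels stood at percentiles 41 and 31.4 of all genes. In hippocampus 21 of the 25 were above 0 with a median of 0.10, and 16 were above 0 with arrays centred on their medians. Sp7, the osteoblast factor osterix, was lower in hippocampus, with a difference of -2.58 in both genotypes. In all, 10 of the 25 were lower there in each genotype, and 0 were higher in wild type and 1 in knockout.

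Markers of other cells that a dissection could hold were read beside the fate factors. Of 11 measured genes of projection neurons 0 passed for genotype in limma in either tissue, with 1 in bulb and 2 in hippocampus at an unadjusted p under 0.05 and medians of -0.01 in both. Of 8 striatal neuron genes, from the tissue whose progenitors share many of these factors, 0 passed, 2 in bulb and 0 in hippocampus had an unadjusted p under 0.05, and 7 were below 0 in bulb with a median of -0.12. With arrays centred on their medians 3 of the 8 were above 0 and the median was again -0.12. Of 12 genes of cortical and hippocampal interneurons 0 passed, with 1 in each tissue at an unadjusted p under 0.05, and medians of -0.05 and 0.11. Of the 9 mucosa genes 0 passed, with 2 in bulb and 0 in hippocampus at an unadjusted p under 0.05, and of 7 genes of dividing cells 0 passed, with 1 in each tissue. Bulb levels of these 7 ran from percentile 9.2 to 92.5 of all genes, and several stood low, where array values compress differences. The mean over the striatal list lay between 7.21 and 7.31 in wild-type bulb and between 7.12 and 7.16 in knockout bulb, so these groups did not overlap. The cortical and hippocampal interneuron list lay between 7.45 and 7.54 in wild-type bulb and between 7.35 and 7.45 in knockout bulb, groups that nearly touched but did not overlap. With the bulb markers, whose mean was higher in knockout, these were the 3 of 12 lists whose means did not overlap in bulb. In hippocampus 5 of the 12 did not overlap, all higher in knockout. They were the interneuron products, the relatives and cofactors, the projection neurons, the cortical and hippocampal interneurons and the bulb markers. The cortical and hippocampal interneurons lay at 7.91 to 7.99 in wild-type against 8.04 to 8.09 in knockout hippocampus. The bulb markers nearly touched there, at 6.117 to 6.328 against 6.335 to 6.358. The list means were not centred, and array medians there were also higher in knockout, 6.86 to 6.89 against 6.82 to 6.85. The projection neuron list nearly touched, at 7.780 to 7.893 in wild-type and 7.899 to 7.905 in knockout hippocampus. The part of these list means in the Dlx5 result was not tested.

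Between the tissues the interneuron markers of cortex and hippocampus ran the other way from the fate factors, with 7 of 12 higher and 2 lower in wild-type hippocampus and 10 higher and 2 lower in knockout. Of all genes 17.5% were called higher in wild-type hippocampus and 19.2% in knockout. Sst, the somatostatin gene, was higher in hippocampus by 2.07 in wild type and 2.70 in knockout, Pvalb, the parvalbumin gene, by 1.40 and 1.87, and Npas1, a repressor in hippocampal interneurons, by 0.89 and 1.09. Neurod6, a factor of pyramidal neurons, was higher by 4.20 and 3.88, and C1ql2, a secreted protein of granule cell synapses, by 2.14 and 2.01. Cdhr1, a protocadherin of mitral and tufted cells, was lower, with differences of -3.98 and -4.00. Whether the tissue differences of the fate factors reflect cell numbers was not tested.

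**Figure D5:**
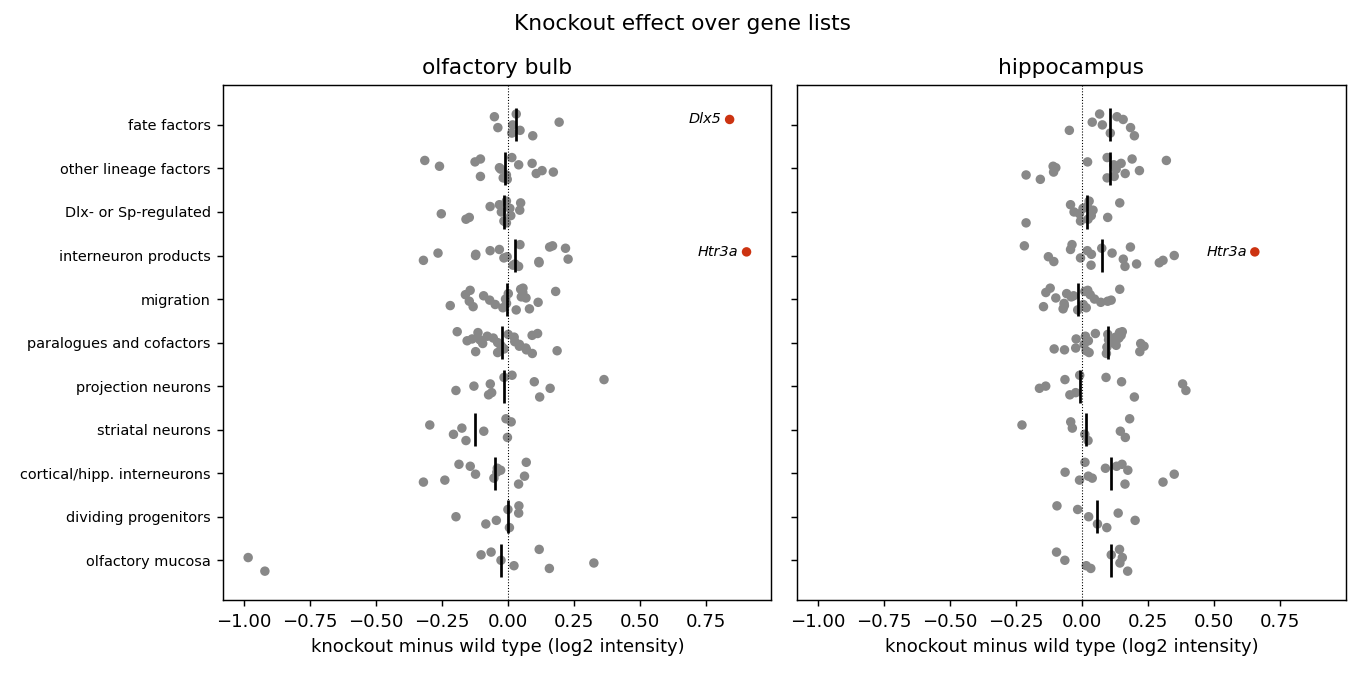
Knockout minus wild type in log2 intensity for every measured gene of the 9 fate factors and the related lists, in bulb (left) and hippocampus (right), with a black bar at each list's median, red for genes past an adjusted p of 0.05 and grey for the others. Dlx5 in bulb (0.84) and Htr3a in bulb (0.90) and hippocampus (0.65) are the red points, and the list medians lie between -0.12 and 0.11.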

How the data were processed

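Total RNA of olfactory bulb and hippocampus was biotinylated after fragmentation and put on 1-colour arrays, per the labels' protocols. The authors deposited 1 log2 intensity for each of 35556 probe sets and 12 samples, made with RMA and the oligo package, per the submitters' processing notes. RMA corrects background, quantile-normalizes and summarises probes, which compresses differences near background. The sources used here give no versions and do not say if bulb and hippocampus arrays shared 1 normalization. Of the probe sets, 21789 had 1 gene symbol, 1621 had several and 12146 were unlisted. Entrez numbers matched 21698 of the single-symbol probe sets to the RefSeq gene table of GRCm38.p6. For 999 genes with more than 1 probe set, the one with the highest mean over the arrays was used.

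The log2 values as deposited were fitted with limma 3.58.1 in R 4.3.3, with 4 group means over 12 arrays, lmFit, eBayes and Benjamini-Hochberg adjustment over 19938 genes at 0.05. No gene was left out for low signal. Replicate arrays of a group differed by an SD of 0.212 to 0.297 across genes. They come from separate animals, per the labels. The pipeline was tested on simulated data. Figures were drawn with matplotlib 3.10.9.

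The labels give both tissues of each animal. For 2 of the wild-type animals the animal code and the number in the title pair the tissues differently, so both were tried as a block. Deviations of an animal's tissues from their group means correlated at -0.255 to 0.116 by code and -0.208 to 0.252 by number.

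The genes and lists were chosen with earlier results of these data known. Of 163 list entries 150 were measured. Besides the fate factors and Rasgrf2, the text names list members past the threshold for genotype and up to 3 others of a list, up to 3 of a list that passed in both tissue comparisons with the largest change, the 5 nearest measured genes on each side of the Dlx pairs, and the 3 genes most correlated with Dlx5 on each scale. Predicted genes, clones, small RNAs and chemoreceptors were left out of the search for correlated genes. Cyp2g1, Stoml3, Omp and the 4 bulb markers in knockout bulb are named outside this rule, after their values were seen. Alternatives were arrays centred on their medians, limma's trend and robust moderation, array weights, the compared groups alone, dim genes left out, every probe set, the animal as a block, another probe set of Etv1, and each array left out in turn.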

Additional observations from a re-analysis of the deposited data

How the results depend on the processing

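Dlx5 was above the threshold in knockout bulb under all 14 alternatives, with differences of 0.74 to 0.94 and adjusted p of 7.46e-05 to 0.0127. All 9 fate factors stayed lower in hippocampus past the threshold in both genotypes under every alternative run, and in knockout hippocampus and for the difference between tissues 0 of the 9 passed under any. The effect of Dlx5 in hippocampus minus bulb ran from -0.78 to -0.57 with adjusted p of 0.0706 to 0.572. Counts over all genes moved more, and apart from what is named below the cause was not tested. In bulb, 82 genes became 136 with trend and robust moderation (71 higher and 65 lower), 36 with the compared groups alone and 35 to 105 with an array left out. The counts fell to 38 and 40 when wild-type bulb replicates 1 and 2 were left out, and to 41, 50 and 35 when knockout bulb replicates 4, 5 and 6 were. In hippocampus, 51 became 336 with array weights, where knockout replicate 4 had a weight of 4.31, 28 with the compared groups alone, 125 over every probe set and 30 to 43 with an array left out. The lowest of these came without wild-type replicate 1 (30), wild-type replicate 3 (33) and knockout replicate 5 (32). For the difference between tissues, 3 became 12 with array weights, 0 over every probe set and 0 to 4 with an array left out, with 0 without replicate 4 of knockout bulb or of knockout hippocampus. With the animal as a replicate block that count was 0 by code and 0 by number, and the block changed no other call on the fate factors.

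Signs turned for small differences that passed in no setting. With array weights Pax6 in hippocampus was 0.042, and for the difference between tissues Pax6 was 0.0057 and Dlx1 was -0.021. Dlx1 was -0.0077 there with arrays centred, and Etv1 was -0.032 by its further probe set. With an array left out, the bulb values ran from -0.015 to 0.086 for Dlx1, -0.146 to 0.050 for Dlx2, -0.049 to 0.053 for Sp8, -0.0079 to 0.047 for Etv1, -0.073 to 0.022 for Meis2, -0.031 to 0.047 for Cdhr1, -0.033 to 0.241 for Tbx21 and -0.094 to 0.086 for Slc32a1. In hippocampus they ran from -0.108 to 0.017 for Pax6 and -0.016 to 0.131 for Etv1, and for the difference between tissues from -0.019 to 0.082 for Dlx1 and -0.035 to 0.113 for Etv1. Medians of lists carry signs that depend on centring where named in the text. Arrays give no depth, and 3 per group limit what differences can pass.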
